A study of Mus musculus with 36 samples.

Results

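Ion channel genes that set neuronal excitability were examined in cultured mouse cortical neurons, leaving out the Kv4 family and its KChIP subunits. The members were the protein-coding genes whose GENCODE symbol begins with Kcn, Hcn and a digit, Scn and a digit with a final a or b, Cacna1, Cacna2d or Cacnb, apart from Kcnd1 to Kcnd3 and Kcnip1 to Kcnip4, with a mean above 5 counts per library over the 36 libraries. This rule gave 103 members among 20355 genes above the same threshold, of 123 symbols that match it at any count. Of the members nearest to the threshold, Scn4b (5.06), Scn4a (5.31), Kcnk5 (5.47) and Cacna1f (5.78) lay just inside in mean count, and Kcnk7 (4.86), Kcnmb1 (4.83), Scn10a (4.78) and Scn7a (4.64) just outside.

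Voltage-gated sodium (Nav) and calcium (Cav) channels are built around a pore-forming alpha subunit, with beta and alpha2delta subunits that set trafficking and gating. Potassium channels fall into voltage-gated (Kv), calcium- and sodium-activated, inwardly rectifying (Kir) and tandem-pore leak (K2P) classes, and HCN channels carry the hyperpolarization-activated cation current. In cortical neurons sodium channels start and carry the action potential, presynaptic calcium channels trigger transmitter release, and potassium channels set the resting potential and repolarize the membrane.

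The cells were C57EDCX dissociated cortex of mouse embryos at embryonic day 18, obtained from a commercial supplier and sequenced as bulk RNA. After 10 days in culture they received 1 µM dexamethasone (DEX, a synthetic glucocorticoid), 1 µM DEX with 1 µM RU-486 (a glucocorticoid receptor antagonist), or fresh medium (control) for 72 h, with replenishment at 48 h. There were 12 libraries per group, 6 in each of 2 labelled batches, and libraries are named here by the number in their label, from 1 to 36. The paper's methods name 12 experimental replicates per group. Neither they nor the labels say that libraries of a group came from separate cultures. The p-values therefore measure the spread between these libraries, which may be technical.

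RNA integrity and depth differed with treatment in batch 1. The RNA integrity number (RIN) in that batch was 7.8 to 9.2 in control, 3.9 to 7.8 in DEX and 5.6 to 7.9 in DEX + RU-486 libraries, and the total was 24.2 to 82.4, 12.1 to 22.3 and 17.4 to 26.7 M counts (M, 1000000). Neither can be told apart from treatment there. In batch 2 the RIN was under 3 for 2 libraries per group, while the remaining 4 had 7.4 to 8.0 in control, 7.4 to 7.7 in DEX and 7.6 to 8.7 in DEX + RU-486. These 12 libraries are called intact below, and the batch 2 comparisons rest on them.

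The channel genes together took 0.382% to 0.494% of all counts in the 6 control libraries of batch 1. In DEX libraries of that batch the share was 0.272% to 0.317%, apart from library 12 (RIN 3.9) at 0.175%. In DEX + RU-486 libraries it was 0.25% to 0.367%, apart from library 18 (RIN 5.6) at 0.177%, so neither treated group overlapped the controls. Among intact libraries of batch 2 the controls held 0.313% to 0.358% and the DEX libraries 0.269% to 0.292%, without overlap. The DEX + RU-486 libraries of batch 2 split, with 0.308% and 0.321% in libraries 33 and 34 and 0.446% and 0.437% in libraries 35 and 36, whose RIN was 8.7 and 8.5. The 6 libraries with a RIN under 3 had the range 0.103% to 0.238%, below every intact library of batch 2.

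**Figure D1:**
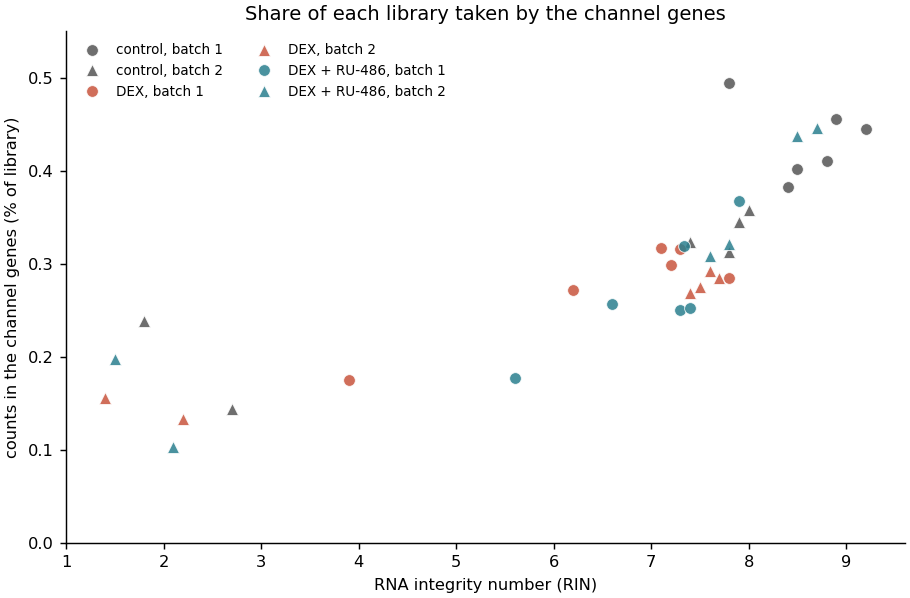
Share of all counts assigned to the 103 channel genes (y axis, percent) against the RNA integrity number (x axis) for each of the 36 libraries, by treatment and batch. The libraries with a RIN under 3 lie at 0.103% to 0.238%, and the control libraries of batch 1, with a RIN of 7.8 to 9.2, lie at 0.382% to 0.494%, together with DEX + RU-486 libraries 35 and 36 of batch 2.

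In bulk RNA, fewer cells of a type and less RNA per cell cannot be told apart. The labelled cell type was checked against marker lists. The 6 neuronal markers (Tubb3, Rbfox3, Map2, Snap25, Syt1 and Stmn2) were all detected, with a summed level of 3334 to 4278 counts per 1000000 counts (CPM) in batch 1 controls, 2495 to 3363 in DEX and 2690 to 3454 in DEX + RU-486. Astrocyte markers summed to 32.6 to 46.4 CPM in the same controls, 35.7 to 72.6 in DEX and 33.96 to 70.3 in DEX + RU-486. Markers of the oligodendrocyte lineage summed to 61.3 to 276.8 CPM, 465.8 to 2118 CPM and 215.5 to 915.6 CPM in that order. Of 7 microglial markers only 3 had enough counts to be tested.

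In control cultures, high levels were held by presynaptic calcium channel and sodium channel subunits. On the scale of CPM per kb of annotated exon, as the mean over the 10 intact control libraries, the highest member was Cacnb3 (21.3), a cytoplasmic calcium channel beta subunit. High levels were also held by Scn3b (19.8), a sodium channel beta subunit, Scn2a (18.8), the alpha subunit of developing excitatory axons, and Cacna1b (16.98), the N-type calcium channel pore of nerve terminals. Further members near the top were Cacna2d1 (15.9), Cacnb1 (15.6), Hcn2 (13.02), the embryonic sodium channel Scn3a (9.67) and Kcna6 (8.99). The median level of the members was 2.22 CPM per kb, against 2.86 for 14672 protein-coding genes tested, and 43 of the 103 members lay above that median. At the low end 12 members had under 0.1 CPM per kb, the lowest being Scn4a, the skeletal muscle sodium channel, at 0.00865.

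By class, the 9 Cav alpha1 genes had the largest summed level (55.3 CPM per kb), followed by 4 Cav beta genes (42.2), 8 Nav alpha genes (36.5), 10 K2P genes (29.6), 4 HCN genes (28.8) and 4 Nav beta genes (28.7). The 4 alpha2delta genes (21.7), 7 Kv1 genes (21.4), 4 Kv7 genes (20.9), 6 BK and sodium-activated genes (20.5) and 12 Kir genes (20.1) had similar sums. Below these were 9 electrically silent Kv subunits (18.4), 4 Kv3 genes (11.6), 8 EAG, ERG and ELK genes (10.8), 2 Kv2 genes (7.32), 3 Kv beta genes (6.25) and 3 SK and IK genes (3.21). Leading members of potassium channel classes were Kcnk10 (7.57), an arachidonic acid-sensitive leak channel, Kcnma1 (7.54), the BK channel pore, Kcnj4 (6.90), an inward rectifier, Kcnf1 (6.87), a silent subunit, Kcnc1 (5.06), the fast-spiking Kv3 channel, Kcnab2 (4.16), Kcnh7 (2.86) and Kcnn3 (1.42). When levels were divided by the longest transcript instead, Kcnh3, Kcnn2 and Kcnmb4 led the EAG/ERG/ELK, SK and BK classes.

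**Figure D2:**
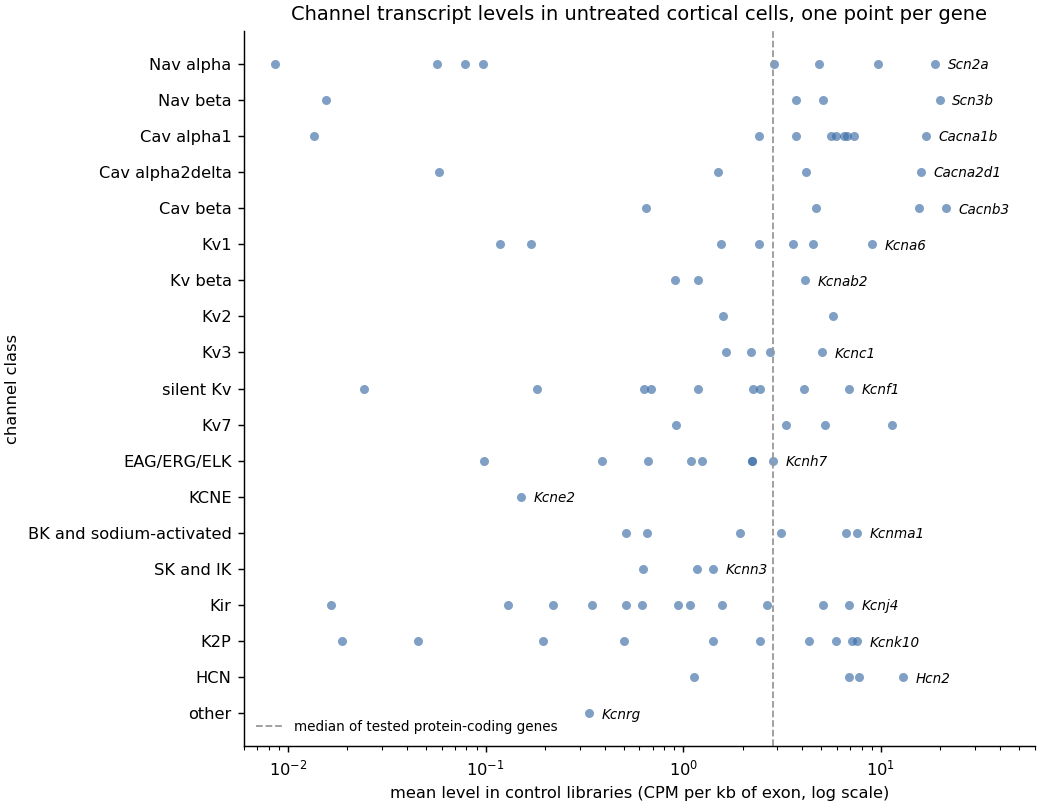
Level of each member in the 10 intact control libraries (x axis, CPM per kb of annotated exon, log scale) by channel class (y axis), 1 point per gene, with leading members of classes named and the median of tested protein-coding genes (2.86) as a dashed line. Cacnb3 (21.3), Scn3b (19.8) and Scn2a (18.8) lie farthest to the right, and 12 members lie under 0.1.

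The first comparison asked which channel genes differed in DEX cultures of batch 1. There, 18 members fell and 4 rose, with a median log2 fold change of -0.13 over the 103 members against 0.06 over all genes tested. The genes that fell included the sodium channel pore Scn2a, the calcium channel subunit Cacna2d1, and the potassium channels Kcna2, Kcnma1, Kcnk9 and Kcnv1, and their fitted decreases ranged from 0.41 to 1.06 on the log2 scale. The share of members that fell was 17.5%, beside 9.99% of all genes tested, and the share that rose was 3.88%, beside 8.98% of all genes (edgeR quasi-likelihood test, Benjamini-Hochberg adjusted p under 0.05, 6 against 6 libraries). With RIN as a covariate, 17 of the 18 decreases lost the call, Kcna2 being the one that kept it, and none of the 4 increases was called. That fit called 4 members lower, Kcna2 and also Scn8a, Cacna1e and Kcng1, beside 1.78% of all genes. Without the libraries with a RIN under 6, 20 members fell and 3 rose, beside 9.71% and 9.26% of all genes.

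Among sodium channels, Scn2a was the member with the smallest adjusted p. Its level in batch 1 was 231.8 to 307.2 CPM in control (median 282.2), 127.0 to 171.7 in DEX (median 162.8) and 100.1 to 202.0 in DEX + RU-486 (median 177.8). All 12 treated libraries of the batch lay below all 6 controls. The log2 fold change in DEX was -0.79 (SE 0.13, adjusted p = 0.000663). Scn3b also fell, from a mean of 121.4 to 84.97 CPM (log2 fold change -0.48, adjusted p = 0.0152). The other main sodium channel pores of cortex did not pass the test in DEX. Scn3a had -0.32 (adjusted p = 0.0809), Scn8a of the axon initial segment -0.11 (adjusted p = 0.675), and Scn1a, the channel of inhibitory interneurons, 0.45 (adjusted p = 0.0619).

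Scn4a was called higher at a log2 fold change of 2.85 (adjusted p = 0.0474) on few counts. It had 0 to 4 counts per library in batch 1 control and 1 to 18 in DEX, with the highest level, 1.14 CPM, in library 12. That call was kept in 9 of 24 other settings, and it was lost without any 1 of DEX 8, 10 and 12, control 1, 2, 4, 5 and 6, and DEX + RU-486 14, 15 and 16.

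Among calcium channels, the alpha2delta subunits, which carry channels to the membrane, had 3 of 4 members lower. Cacna2d1, a target of gabapentin, was at 195.7 to 318.2 CPM in control and 88.0 to 157.8 in DEX, without overlap (log2 fold change -0.84, adjusted p = 0.00268). Cacna2d2 and Cacna2d3 fell by 0.53 (adjusted p = 0.028) and 0.52 (adjusted p = 0.0201) on the log2 scale, the call of Cacna2d2 being lost without DEX 7 or control 2 or 5. Of the 9 pore-forming Cav alpha1 genes 8 had a negative fold change, and 1 passed the test, the T-type channel Cacna1i at -0.48 (adjusted p = 0.0174). The abundant N-type gene Cacna1b had means of 165.9 CPM in control and 159.8 in DEX (log2 fold change -0.02, SE 0.10, adjusted p = 0.924). None of the 4 Cav beta genes was called, Cacnb3 being at -0.20 (adjusted p = 0.104). With a RIN under 3 in batch 2, 3 of the 4 alpha2delta genes were lower and 0 higher, beside 26.8% and 28.4% of all genes. The median log2 fold change of that class was -1.17 there, -0.53 in DEX of batch 1 and 0.08 in DEX of batch 2. The part of RIN in the batch 1 values was not tested.

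The voltage-gated potassium channels that fell belonged to several families. Kcna2, an axonal Kv1 channel, was at 25.8 to 35.7 CPM in control (median 29.6), 16.5 to 24.2 in DEX (median 18.5) and 18.8 to 23.3 in DEX + RU-486 (median 21.6). Neither treated group reached the lowest control. Its fold change in DEX was -0.61 on the log2 scale (SE 0.12, adjusted p = 0.00204), and it was called in all 25 other settings. Kcnab1, a cytoplasmic Kv beta subunit that confers inactivation, fell by 0.75 (adjusted p = 0.00452). Kcnb2, a Kv2 delayed rectifier, fell by 0.58 (adjusted p = 0.00686). Kcnv1, a silent subunit that pairs with Kv2, fell from 16.6 to 27.6 CPM in control to 6.69 to 14.9 in DEX, without overlap (log2 fold change -1.02, adjusted p = 0.00171).

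All 4 Kv7 genes had negative fold changes. Kcnq5 fell by 0.59 (adjusted p = 0.0122), and Kcnq3 was at -0.22 (adjusted p = 0.195). In the EAG, ERG and ELK class 1 of 8 members was called, the ELK channel Kcnh3 at -0.79 (adjusted p = 0.0182). None of the 4 Kv3 genes of fast-spiking neurons was called.

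Kcnma1, whose product opens on calcium and depolarization together, was at 123.4 to 159.4 CPM in control (median 154.6), 71.9 to 109.1 in DEX (median 78.8) and 52.4 to 104.6 in DEX + RU-486 (median 92.4). The treated libraries again lay below every control. Its log2 fold change in DEX was -0.76 (SE 0.14, adjusted p = 0.00131). Kcnn2, a small-conductance calcium-activated (SK) channel, rose, with 4.22 to 7.95 CPM in control, 6.91 to 18.6 in DEX and a log2 fold change of 0.83 (adjusted p = 0.0271). The groups overlapped for that gene, and the call was lost without DEX 10 or 12 or control 1, 2 or 4.

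Leak channels of the K2P class included the member with the largest called decrease. Kcnk9, an acid-sensitive leak channel, was at 46.1 to 94.8 CPM in control (median 62.1), 18.0 to 37.9 in DEX (median 33.2) and 23.8 to 54.1 in DEX + RU-486 (median 34.9). DEX lay below every control and DEX + RU-486 overlapped them. The log2 fold change in DEX was -1.06 (SE 0.19, adjusted p = 0.00117). Kcnk1 and Kcnk10 fell by 0.51 (adjusted p = 0.0119) and 0.42 (adjusted p = 0.00613), and the mechanosensitive Kcnk2 was at -0.24 (adjusted p = 0.308). Of the 4 HCN genes only Hcn4 was called, at -0.41 (adjusted p = 0.0219), and Hcn2 was at -0.37 (adjusted p = 0.182). For Hcn2 the groups overlapped, with library 7 at 58.0 CPM, the other DEX libraries at 22.98 to 35.2 and the controls at 38.9 to 51.8.

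Among the 12 Kir genes 2 rose. Kcnj10, the inward rectifier through which glial cells take up potassium, was at 0.371 to 2.27 CPM in control (median 0.6252), 3.62 to 15.6 in DEX (median 3.90) and 1.68 to 9.54 in DEX + RU-486 (median 2.91). DEX lay above every control, its highest value being library 12, and DEX + RU-486 overlapped them. The log2 fold change in DEX was 2.69 (SE 0.51, adjusted p = 0.00165). Kcnj15 had 0 to 12 counts in control and 1 to 23 in DEX (log2 fold change 2.67, adjusted p = 0.023), a call lost without DEX 7. The G protein-gated Kcnj3 and Kcnj6 were at -0.12 (adjusted p = 0.862) and 0.30 (adjusted p = 0.569). For Kcnj3 the groups overlapped, with library 7 at 78.4 CPM and the other DEX libraries at 12.2 to 24.2. Its controls were at 24.7 to 55.6 CPM, with library 1 the highest.

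**Figure D3:**
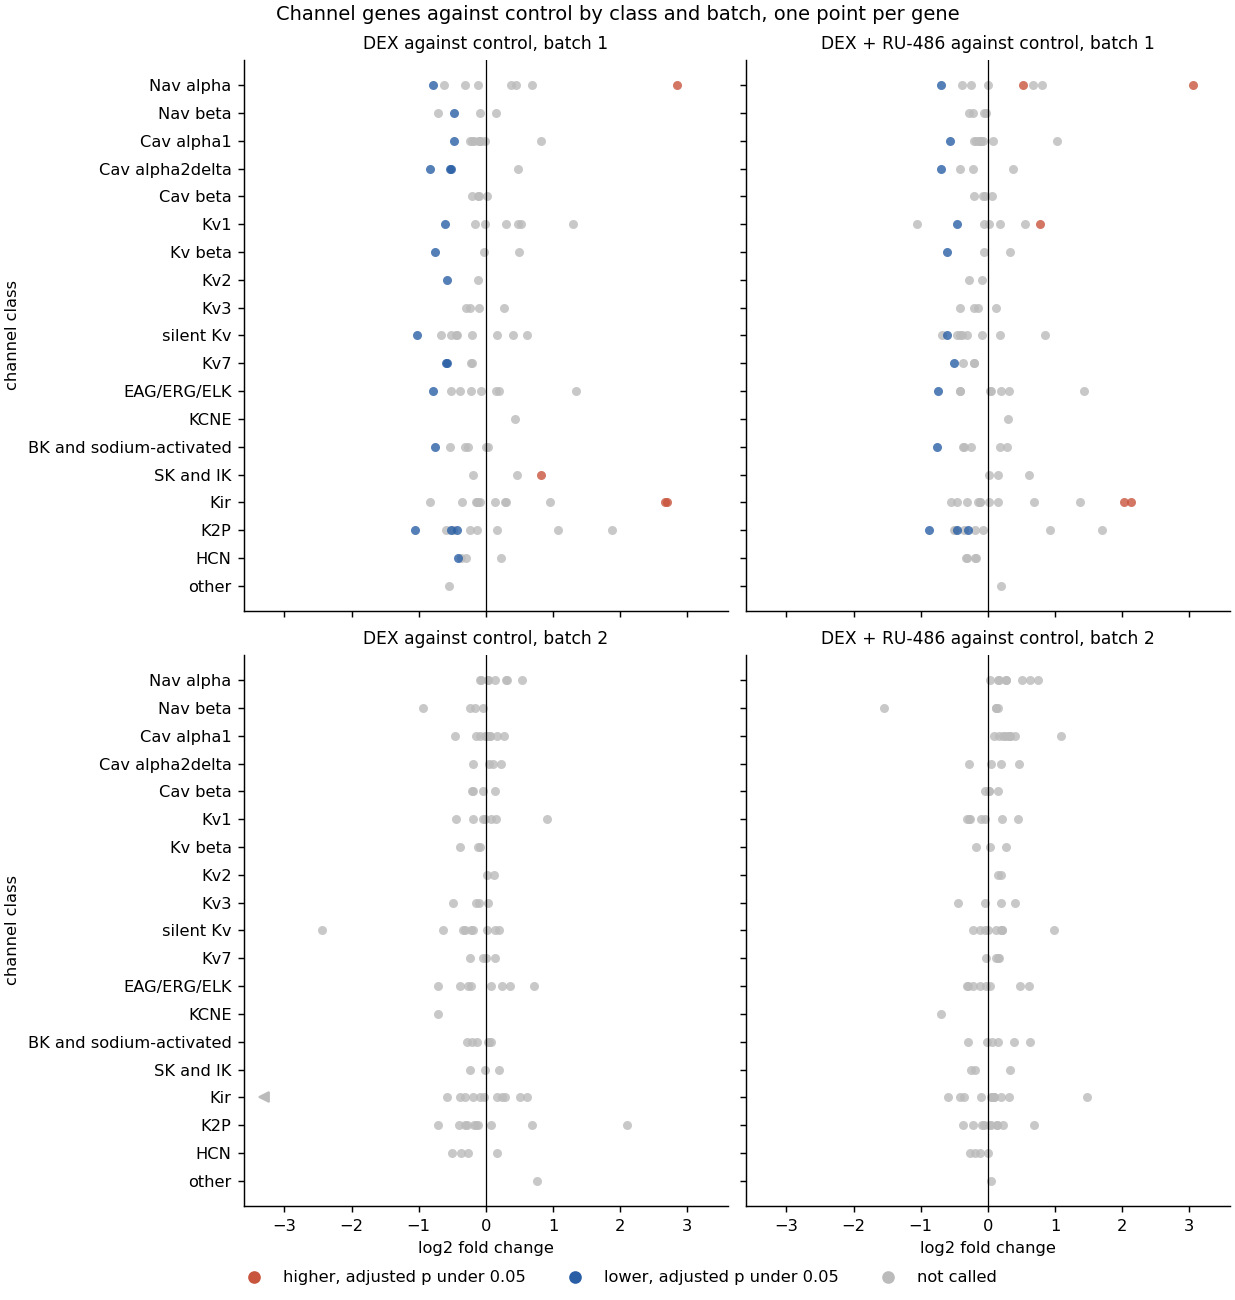
Fitted log2 fold change of each member (x axis) by channel class (y axis) for DEX and for DEX + RU-486 against control, in batch 1 and in the intact libraries of batch 2, with called members in blue (lower) or red (higher) and Kcnj15 drawn as a triangle at the edge for DEX of batch 2. Called members appear in the batch 1 panels, 18 lower and 4 higher for DEX and 12 lower and 5 higher for DEX + RU-486, and none in the batch 2 panels.

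Other values moved with these results in the same libraries, and their part in them was not tested. In DEX of batch 1, 5 of 6 neuronal markers and 3 of 4 excitatory markers fell, 1 of 6 inhibitory markers rose, and 4 of 8 astrocyte, 6 of 8 oligodendrocyte lineage, 2 of 6 endothelial and mural and 4 of 6 dividing-cell markers rose. Among 6 known glucocorticoid receptor targets, Tsc22d3 (log2 fold change 0.67, adjusted p = 0.0352) and Per1 (0.80, adjusted p = 0.00825) rose in DEX, and Fkbp5 was at -0.05 (adjusted p = 0.887). Per1 was also called in DEX + RU-486 (0.75, adjusted p = 0.0158), and none of the 6 was called in batch 2.

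DEX + RU-486 cultures of batch 1 were compared with the same 6 control libraries, so the values of both treatments stand side by side here and are not independent. In this comparison 12 members fell (11.7%, beside 8.46% of all genes) and 5 rose (4.85%, beside 6.92%). The log2 fold changes were -0.70 for Scn2a (adjusted p = 0.00209), -0.75 for Kcnma1 (adjusted p = 0.00223), -0.88 for Kcnk9 (adjusted p = 0.00516) and -0.46 for Kcna2 (adjusted p = 0.0134). Cacna2d1, Kcnv1, Kcnab1, Cacna1i, Kcnh3, Kcnk1 and Kcnk10 also fell, by 0.30 to 0.75. Kcnj10 rose by 2.13 (adjusted p = 0.00891), and the T-cell and neuronal Kv1 channel Kcna3 by 0.78 (adjusted p = 0.0154). Scn1a (0.52, adjusted p = 0.036), Kcnj14 (2.03, adjusted p = 0.0272) and Scn4a (3.05, adjusted p = 0.0391) rose as well, the latter on 1 to 13 counts per library.

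With RIN as a covariate 4 members fell in DEX + RU-486, and of the 12 above these included Kcna2, Kcnma1 and Scn2a, beside 1.79% of all genes lower in that fit. Leaving out library 18, with a RIN of 5.6, left 11 called members in place of 17, beside 9.44% of all genes in place of 15.4%, and the calls of Kcnh3, Kcnk10, Kcnk1, Kcnv1, Kcnj14 and Scn4a were lost without it. Other single libraries also ended calls, namely DEX + RU-486 15, 16 or 17 or control 1, 2 or 5 for Kcnh3, DEX + RU-486 15 or 17 or control 1, 2, 5 or 6 for Kcnk10, and DEX + RU-486 13 or 15 or control 5 or 6 for Kcnv1. For Kcnj14 these were control 2, 4 or 5, for Scn4a DEX + RU-486 15 or 16 or control 1, 2, 4, 5 or 6, and for Scn1a DEX + RU-486 13, 14 or 17 or control 2, 3, 4 or 6. In the same libraries 5 of 6 neuronal markers fell, and 3 of 8 astrocyte, 4 of 8 oligodendrocyte lineage, 3 of 6 endothelial and mural and 4 of 6 dividing-cell markers rose.

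The direct comparison of DEX + RU-486 with DEX in batch 1 asked whether the antagonist changed the response. No member was called by edgeR, nor by DESeq2, and 5 had an unadjusted p under 0.05, beside 4.09% of all genes. Of all genes 0% were called by edgeR. Fold changes of the members had a median of 0.04 and ranged from -1.54 to 1.07 on the log2 scale.

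**Figure D4:**
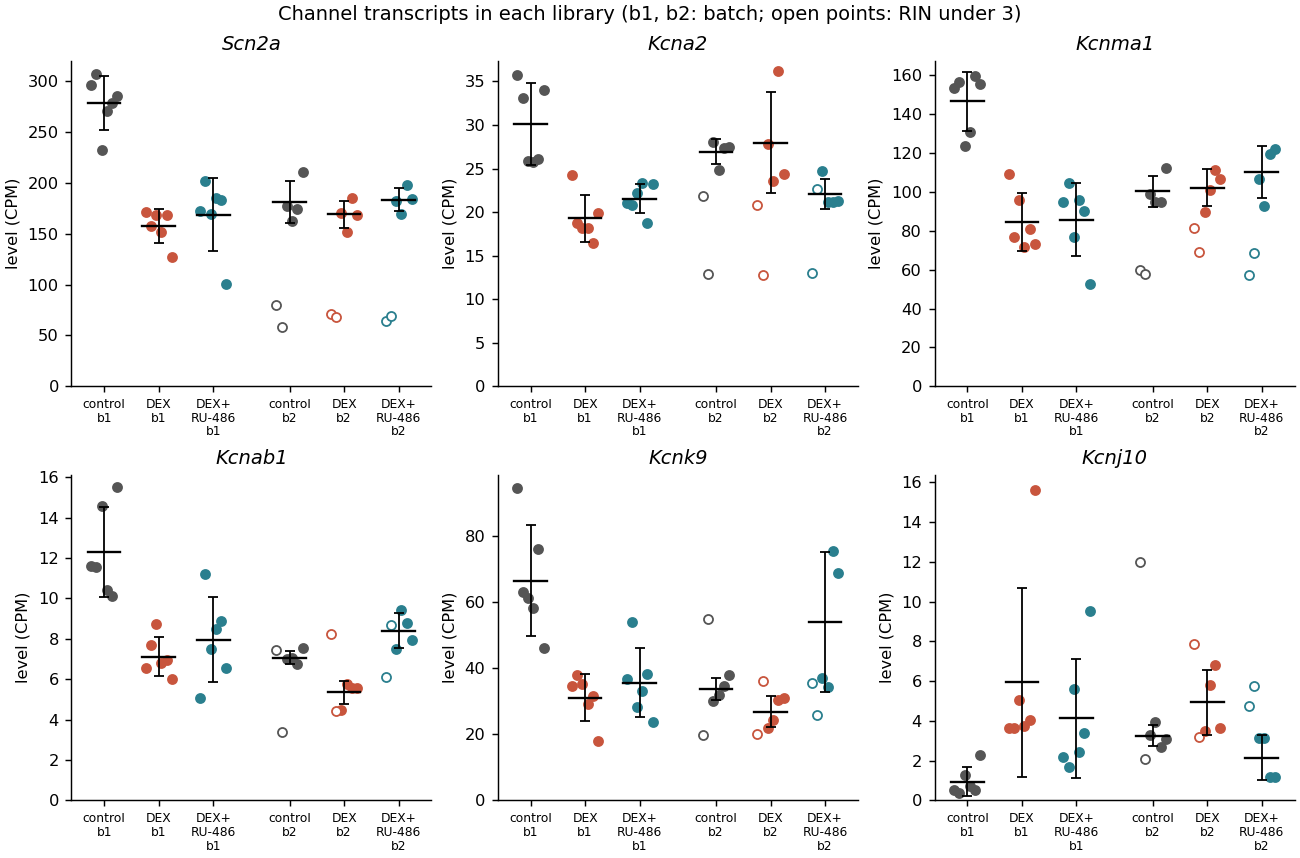
Level in each library (y axis, CPM) of Scn2a, Kcna2, Kcnma1, Kcnab1, Kcnk9 and Kcnj10 by treatment and batch (x axis), with the mean and SD as bars over the filled points and libraries with a RIN under 3 as open points left out of the bars. In batch 1 the control libraries of Scn2a (231.8 to 307.2 CPM) stand above all treated libraries, and in batch 2 the intact libraries of the 3 groups overlap for that gene.

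The sequence before the start of Scn2a, the member with the smallest adjusted p, and of Kcnj10, which had the smallest adjusted p among the increases, is shown because each holds the hexamer to which a glucocorticoid receptor monomer binds. The windows are the 250 bases upstream of a RefSeq transcript start (GRCm38.p6), both on the plus strand, with the hexamer (AGAACA, or TGTTCT on the other strand) and GC boxes (GGGCGG, or CCGCCC) in capitals.
Scn2a, chr2:65668436-65668685: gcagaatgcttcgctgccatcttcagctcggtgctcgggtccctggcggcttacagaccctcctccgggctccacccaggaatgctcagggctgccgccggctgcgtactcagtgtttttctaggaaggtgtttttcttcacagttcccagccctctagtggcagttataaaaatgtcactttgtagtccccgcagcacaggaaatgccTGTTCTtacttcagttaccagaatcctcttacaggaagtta
Kcnj10, chr1:172340960-172341209: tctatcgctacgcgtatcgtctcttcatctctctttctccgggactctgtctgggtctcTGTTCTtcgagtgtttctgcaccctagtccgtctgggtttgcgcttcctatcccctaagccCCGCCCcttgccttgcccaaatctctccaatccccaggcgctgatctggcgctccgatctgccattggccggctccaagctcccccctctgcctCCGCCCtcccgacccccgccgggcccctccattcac
The hexamer lay 41 bases before the start in Scn2a and 191 before it in Kcnj10, which also had 2 GC boxes, and neither window overlapped an annotated exon. The table also holds a window at another start of Scn2a, chr2:65620519-65620768, which borders the start of the annotated gene and has no hexamer and no GC box. A window was found for 71 of the 103 members, and 15 of them (21.1%) held the hexamer, beside 18.2% of 27025 genes. It occurred in 3 of 12 members that fell in DEX and 1 of 3 that rose. The palindrome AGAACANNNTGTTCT occurred in 0.0111% of genes and in 0 members. The GC box was found in 62% of members and 35.4% of genes, and the TATA letters TATAAA in 7.04% and 14.3%. These are matches of letters and were not tested for binding.

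In batch 2, no member was called in DEX against control (4 against 4 intact libraries), beside 0.565% of all genes in either direction. At an unadjusted p under 0.05, 14 members were lower and 3 higher, in all 17 of 103 beside 17.2% of all genes. DESeq2 called 3 members lower, beside 2.39% of all genes, the Kv1 channel Kcna3, the HCN subunit Hcn3 and Kcnv1. With edgeR, 3 members were called without DEX 30, beside 3.24% of all genes, and 1 without DEX + RU-486 34 or 36, beside 0.418% and 0.717%. Scn2a was at 177.3, 162.8, 174.7 and 210.5 CPM in control and 170.7, 151.7, 184.7 and 168.3 in DEX, so that the groups overlapped. Scn2a had a log2 fold change of -0.09 here (SE 0.09, adjusted p = 0.629). Kcna2 was at 28.02, 24.9, 27.4 and 27.5 CPM in control and 27.8, 23.6, 36.2 and 24.4 in DEX (log2 fold change 0.07, SE 0.12). Kcnma1 was likewise mixed, with a fold change of 0.04 (SE 0.10, adjusted p = 0.86).

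The DEX and control libraries of batch 2 did not overlap for 14 of the 103 members. Of these, 11 were lower in DEX, beside 7.02% of all genes, and 3 higher, beside 4.47%, and none of these passed the threshold. The smallest adjusted p among them was that of Hcn3, at 30.3 to 34.5 CPM in control and 20.5 to 26.2 in DEX (log2 fold change -0.50, adjusted p = 0.0502), which was not called in DEX of batch 1. Kcna3, also not called there and higher in DEX + RU-486 of batch 1, was at 9.47 to 12.3 CPM in control and 7.20 to 8.25 in DEX (log2 fold change -0.44, adjusted p = 0.107). Of the 18 members lower in DEX of batch 1, 5 were among the 11, and both named next are of these 5. The matching share of all genes lower in batch 1 was not computed, so nothing is read from this count. Kcnv1 was at 12.9, 12.3, 12.02 and 13.99 CPM in control and 4.36, 7.50, 10.2 and 10.6 in DEX (log2 fold change -0.64, adjusted p = 0.133). Kcnab1 was at 6.73 to 7.55 CPM in control and 4.496 to 5.77 in DEX (log2 fold change -0.39, adjusted p = 0.163). Of the 18 members lower in batch 1, 13 had a negative fold change in batch 2, beside 59 of all 103, and their median was -0.17 in batch 2 and -0.59 in batch 1. Kcnj10 was at 2.67 to 3.96 CPM in control and 3.501 to 6.79 in DEX (log2 fold change 0.62, adjusted p = 0.35).

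DEX + RU-486 against control in batch 2 gave no called member by edgeR, beside 0.00491% of all genes. At an unadjusted p under 0.05 there were 16 members, 14 of them higher, beside 7.55% of all genes in either direction, and DESeq2 called 1, Scn1a, at 0.51, beside 0.152%. Levels in this group were uneven between libraries. Kcnk9 was at 37.1 and 34.5 CPM in libraries 33 and 34, and at 75.7 and 69.0 in libraries 35 and 36. Kcnh3 was at 6.52 and 6.26 CPM in the former and 12.4 and 12.5 in the latter.

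Against DEX of batch 2, DEX + RU-486 had 4 members higher (3.88%, beside 0.747% of all genes) and 0 lower (beside 0.811%). Kcnk9 rose by 1.00 (SE 0.21, adjusted p = 0.0372), Kcnab1 by 0.65 (SE 0.14, adjusted p = 0.0394) and Kcnh3 by 1.32 (SE 0.28, adjusted p = 0.0396) on the log2 scale. For example Kcnab1 was at 4.496, 5.77, 5.57 and 5.56 CPM in DEX and 7.50, 9.40, 8.79 and 7.95 in DEX + RU-486. Kcnh3 was at 2.33, 2.93, 3.68 and 6.14 CPM in DEX and 6.52, 6.26, 12.4 and 12.5 in DEX + RU-486. Cacna1i (0.76, adjusted p = 0.0528) and Kcnv1 (0.84, adjusted p = 0.0522) lay near the threshold, and Kcnj10 was at -1.20 (adjusted p = 0.0706). All 9 Cav alpha1 genes had positive fold changes with a median of 0.27, none being called, and the median of the 103 members was 0.19 beside 0.01 for all genes.

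These 4 calls were lost in several fits that left out 1 library, also where it was a control, which is not in this comparison. None was left without library 35 (beside 0.0393% of all genes) or 36 (beside 0.0295%). The same was seen without control 21, 22 or 23 (beside 0.2997%, 0.3046% and 0.2702%). It was also seen without DEX 27, 28 or 29 (beside 0.226%, 0.0491% and 0.1818%). There were 10 calls without DEX 30 (beside 6.38% of all genes) or without DEX + RU-486 34 (beside 3.90%), and 13 without DEX + RU-486 33 (beside 4.21%), where the main comparison had 1.56% of all genes in either direction. With RIN as a covariate 0 were called, beside 0.0246%. In the same comparison 4 of 8 oligodendrocyte lineage markers were lower, and the part of RIN and cell composition in it was not tested.

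The difference between batches was tested directly over the 30 libraries that leave out those with a RIN under 3. The effect of DEX differed for 5 members, 4 in the higher direction in batch 2 (3.88%, beside 1.65% of all genes) and 1 in the lower (0.971%, beside 0.619%). Scn2a had a difference of 0.74 on the log2 scale (SE 0.18, adjusted p = 0.0226), Kcna2 0.72 (adjusted p = 0.0252), Kcnma1 0.84 (adjusted p = 0.02) and Kcnb2 0.75 (adjusted p = 0.0294). In batch 2 the fold changes of these genes were -0.09, 0.07, 0.04 and 0.12 in the same order. Kcnj15, the member in the other direction, was at 0 counts in all 4 intact DEX libraries of batch 2, and its fitted value depends on the prior count.

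For DEX + RU-486 the difference was called for 5 members (4.85%, beside 0.619% of all genes), all higher in batch 2, and 0 lower (beside 0.393%). They included Scn2a (0.76, adjusted p = 0.0358), Kcnma1 (0.93, adjusted p = 0.025), Kcnk9 (1.60, adjusted p = 0.0178) and Kcnab1 (0.89, adjusted p = 0.0478). With all 36 libraries, those with a RIN under 3 included, no member was called for either treatment.

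When all 36 libraries were fitted with batch as a covariate, no member was called in any of the 3 comparisons. Of all genes 0.0246% were called for DEX against control and 0% for DEX + RU-486 against control and against DEX. At an unadjusted p under 0.05 there were 19, 3 and 4 members in that order, beside 16.9%, 10.8% and 2.68% of all genes. DESeq2 called 3 for DEX, beside 2.21% of all genes. Without the libraries with a RIN under 6 this fit called 25 members for DEX, 21 lower and 4 higher, beside 11.9% and 7.83% of all genes, and 6 for DEX + RU-486, beside 8.86% in either direction.

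More of these genes differed with RNA integrity than in any comparison of treatments. Within batch 2, libraries with a RIN under 3 differed from the intact ones, with treatment as a covariate, by 39 members higher (37.9%, beside 28.4% of all genes) and 29 lower (28.2%, beside 26.8%). Scn2a fell by 1.39 (SE 0.09), Cacna2d1 by 1.13, Scn3a by 1.13, Scn3b by 1.06, Kcnv1 by 1.26, Scn1a by 1.20 and the sodium-activated potassium channel Kcnt1 by 1.80 on the log2 scale. For instance Scn2a had 58.3 and 79.7 CPM in the 2 controls with a RIN under 3 and 162.8 to 210.5 in the intact ones. Higher members included Cacna1g (1.66), Kcna1 (1.60) and Cacnb3 (0.96). Of the 39 higher members 5 (Scn4a, Scn4b, Kcnj15, Kcnk5 and Kcnv2) had a mean of 5 counts or fewer over the other 30 libraries, so they passed the filter only through the libraries in which they were high, and nothing is read from their calls. In the same contrast all 6 inhibitory markers were lower, 4 of 6 neuronal markers were higher and 2 lower, and of 4 excitatory markers 1 was higher and 1 lower. Of the others 6 of 8 astrocyte, 7 of 8 oligodendrocyte lineage, 2 of 3 tested microglial, 6 of 6 endothelial and mural and 5 of 6 dividing-cell markers were higher, and their part in it was not tested. Kcnk9 (-0.21) and Kcnab1 (-0.11) were not called.

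Of the 18 members lower in DEX of batch 1, 10 were lower with a RIN under 3, 2 were higher (Cacna1i and Kcnh3) and 6 were not called, and of the other members, leaving out the 5 just named, 19 of 80 were lower and 32 higher. Of the 4 members higher in DEX of batch 1, 3 were higher with a RIN under 3 and 0 lower. Scn4a and Kcnj15 are among these 3 and also among the 5 from whose calls with a RIN under 3 nothing is read. The median fold change with a RIN under 3 was -0.51 for the 18 and 0.22 for the 80. Across these 98 members the fold change in DEX of batch 1 and that with a RIN under 3 had Spearman's rho = 0.301, and 0.253 for the 71 members with a mean above 100 counts. This is a description across genes, which share libraries and depth and are not independent. The longest annotated transcript had a median of 7.21 kb for the 18 and 4.66 kb for all members, and across genes its length and the fold change in DEX of batch 1 had rho = -0.128 over the 103 members and -0.196 over all genes tested.

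**Figure D5:**
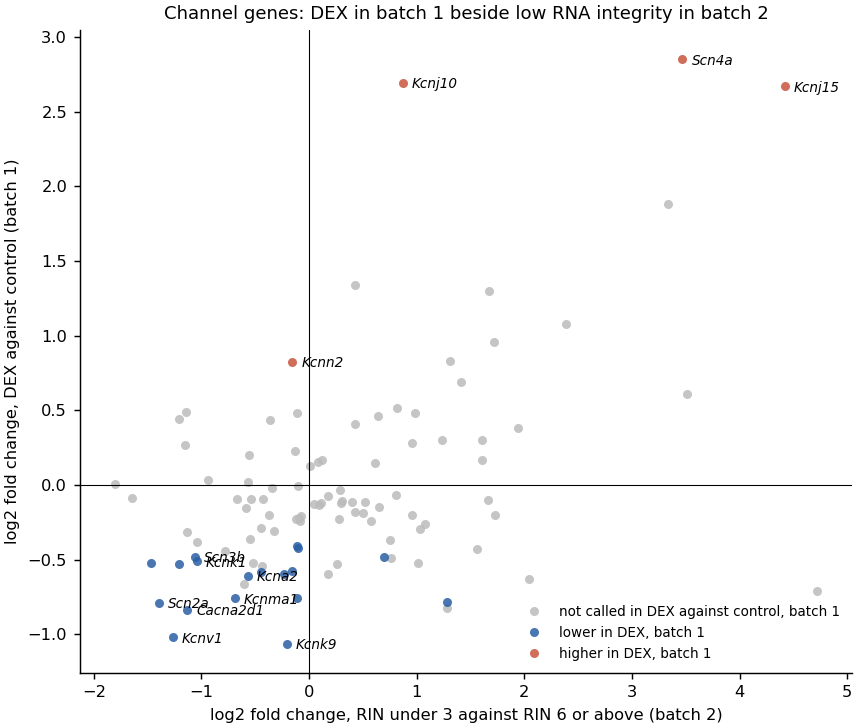
Fitted log2 fold change of each of the 103 members in DEX against control of batch 1 (y axis) and in libraries with a RIN under 3 against intact libraries of batch 2 (x axis), with members called lower in DEX in blue and those called higher in red. Of the 18 members lower in DEX, 10 were also called lower with a RIN under 3, among them Scn2a and Cacna2d1, and 2 were called higher. Of the 4 higher in DEX, 3 were called higher with a RIN under 3.

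Untreated cultures also differed between batches. Against control of batch 1, intact control of batch 2 had 12 members higher (11.7%, beside 21.2% of all genes) and 36 lower (35%, beside 20.5%). Scn2a (-0.60), Cacna2d1 (-0.97), Kcnma1 (-0.53), Kcnk9 (-0.97), Kcnv1 (-0.80) and Kcnh3 (-1.45) were among the lower members, and Kcnj10 (1.81), Kcnn2 (1.22) and the Kv3 channel Kcnc2 (1.70) among the higher. Kcnc2 was at 4.42 to 8.03 CPM in batch 1 and 17.3 to 21.9 in batch 2. Kcna2 was at -0.14 (adjusted p = 0.287). All 6 neuronal markers were lower and all 6 inhibitory and 8 oligodendrocyte lineage markers higher in batch 2 controls, and the part of cell composition in these values was not tested.

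Of 35 partner genes of these channels (anchoring, trafficking, calmodulin and related proteins), 32 were tested. In DEX of batch 1, 4 rose and 6 fell, beside 8.98% and 9.99% of all genes. The increases were in the calcium channel inhibitors Gem (2.13) and Rem2 (1.32), the adaptor Stac2 (0.77) and the secreted protein Lgi3 (1.64). The decreases included the sodium channel-binding Fgf13 (-0.51) and Fgf14 (-0.59), the leak channel Nalcn (-0.56), the Lgi receptor Adam22 (-0.61) and the calmodulin gene Calm2 (-0.39). In DEX + RU-486 of batch 1, Gem and Rem2 were higher and 7 partners lower (beside 6.92% and 8.46% of all genes), among them Fgf13, Fgf14, Adam22, Stac, Calm2 and Calm3. No partner was called in batch 2 or over both batches. In libraries with a RIN under 3, 10 partners were higher and 10 lower, beside 28.4% and 26.8% of all genes.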

How the data were processed

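Bulk RNA-seq of cultured mouse cortical cells was used. The deposited unit was raw counts per gene, which the authors made with HISAT2 2.1.0 and Subread 1.5.0-p2 on GRCm38 per the submitters' processing notes. The annotation release and strand setting are not given in the sources used here, so reads of a gene and of an overlapping gene on the other strand, present for 49 of 103 members, cannot be told apart. The labels give poly(A) selection, while the methods describe a total RNA library. Symbols and coordinates came from GENCODE M21 (55227 of 55492 identifiers matched), and promoter windows from RefSeq (GRCm38.p6).

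Groups, batch and RIN came from the labels. Counts were fitted in R 4.3.3 with edgeR 4.0.16 (TMM factors, quasi-likelihood test) over 20355 genes with a mean above 5 counts, and p-values were adjusted by Benjamini-Hochberg over all of them at 0.05. Alternatives were DESeq2 1.42.0, RLE scaling, other filters on low counts, RIN as a covariate and libraries left out. Batches were fitted apart, and in batch 2 the 6 libraries with a RIN under 3 were left out. CPM used TMM factors. Levels per kb used the union of annotated exons. The fit was tested on simulated data.

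Members and lists were chosen with earlier results of these data known. Named members were the highest per class, up to 10 called in each direction per comparison, up to 6 whose DEX effect differed between batches, and textbook cortical channels. Genes at low counts, such as Scn4a, have fold changes that depend on the prior count. A few members and partners are counted in the totals but are not reported here by name.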

Additional observations from a re-analysis of the deposited data

Results flagged for a closer look

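A library was taken to stand apart where its gap to the nearest library of its group, divided by the range of the group, was above Dixon's 95% critical value, which chance passes in about 1 in 20 groups. This was so in 41 of 270 groups of a named gene, which come from the same libraries and are not independent of each other, so the count is a description. Many involve the lowest-numbered library of each batch 1 group. Libraries 1 (control), 7 (DEX) and 13 (DEX + RU-486) were highest for Kcnj3 (55.6, 78.4 and 63.3 CPM), Kcnh7 (61.5, 95.3 and 75.4 CPM) and Kcnab2 (37.3, 40.9 and 37.2 CPM). Kcnj6 was high in libraries 1 and 13 (16.9 and 15.3 CPM) and Kcnf1 in libraries 7 and 13 (78.0 and 52.5 CPM). Library 1 was also highest for Kcna6 (80.0 CPM), Kcnj4 (33.5 CPM), Scn8a (103.7 CPM), Kcna1 (16.2 CPM) and Kcnk2 (52.0 CPM). Of the 103 members 24 (23.3%) were highest in all 3 of these libraries of their groups, beside 6.47% of all genes, and the cause was not tested.

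In DEX of batch 1, library 7 was highest for Hcn2 (58.0 CPM), Kcnj15 (1.89 CPM), Scn1a (53.5 CPM) and Cacnb4 (64.2 CPM), and lowest for Kcnb2 (10.7 CPM) and Scn3a (68.2 CPM). Library 12, with the lowest RIN of that batch, was highest for Kcnj10 (15.6 CPM), Kcnn2 (18.6 CPM) and Scn4a (1.14 CPM) and lowest for Kcnk2 (16.9 CPM). Library 11 was lowest for Cacna1b (126.4 CPM). In DEX + RU-486 of batch 1, library 18 was lowest for Scn2a (100.1 CPM) and Kcnk10 (44.4 CPM) and highest for Kcna3 (19.8 CPM) and Kcnj14 (2.69 CPM). Control library 4 was lowest for Kcna3 (4.63 CPM).

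In the intact libraries of batch 2, DEX library 30 was highest for Kcnc1 (52.2 CPM) and Kcnj3 (21.4 CPM). DEX library 29 was lowest for Kcnj4 (6.98 CPM) and DEX library 27 for Kcnab1 (4.496 CPM). Control library 21 was highest for Kcnk10 (56.9 CPM), control library 24 for Cacna1a (79.3 CPM) and DEX + RU-486 library 33 for Kcna2 (24.7 CPM).

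The effect of DEX differed between batches, as batch 2 minus batch 1 on the log2 scale, for Kcnma1 (0.84), Kcna2 (0.72), Kcnb2 (0.75), Scn2a (0.74) and Kcnj15 (-7.68, with all 4 intact DEX libraries of batch 2 at 0 counts). The effect of DEX + RU-486 differed for Kcnma1 (0.93), Kcnk9 (1.60), Kcnab1 (0.89) and Scn2a (0.76). Each came from the interaction term in edgeR. Batch goes with RIN, depth and the makeup of the cultures in these libraries, and their part was not tested.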

How the results depend on the processing

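Totals of members called, higher and lower together, are given here of 103, each with the share of all genes called in the same fit in parentheses. With RIN as a covariate there were 4 for DEX (2.79%) and 4 for DEX + RU-486 (2.60%) against control in batch 1, 0 for DEX + RU-486 against DEX in batch 2 (0.0246%), and 3 for DEX over both batches (2.235%). With DESeq2 there were 3 for DEX (4.90%), 1 for DEX + RU-486 (0.152%) and 13 for DEX + RU-486 against DEX (7.15%) in batch 2, and 3 for DEX over both batches (2.21%). RLE scaling gave 1 for DEX in batch 2 (0.575%) and 3 for the difference between batches in DEX (1.435%). With no filter on low counts there were 6 for DEX (3.11%), 6 for DEX + RU-486 (1.02%) and 20 for DEX + RU-486 against DEX (4.03%) in batch 2, and with at least 10 counts in every library 1 for DEX in batch 2 (1.78%). All 18 libraries of batch 2 gave 0 for DEX + RU-486 against DEX (0%). Over both batches without the libraries with a RIN under 6, DEX gave 25 (19.7%) and DEX + RU-486 gave 6 (8.86%), and the difference between batches in DEX + RU-486 gave 10 (1.91%). With all 36 libraries the difference was called for 0 in DEX (0.172%) and 0 in DEX + RU-486 (0.0835%). Leaving out 1 library at a time in batch 1 gave 19 to 26 for DEX (13.56% to 22.43%) and 11 to 21 for DEX + RU-486 (9.06% to 18.86%). In batch 2 it gave 0 to 3 for DEX (0.0442% to 3.24%) and 0 for DEX + RU-486 (0% to 0.00983%). For DEX + RU-486 against DEX in batch 2 it gave 0 to 13 (0.0295% to 6.38%). The added alternative without libraries 1, 7 and 13, chosen after seeing the data, gave 3 higher (8.59%) and 25 lower (10.9%) in DEX and 4 higher (6.41%) and 14 lower (9.05%) in DEX + RU-486 of batch 1. No direction reversed among members called in comparisons of treatments within a batch. The causes were not tested. No paired analysis was made because the labels state no pairing of libraries between groups. In batch 1 every DEX library was shallower than every control, which limits members of few counts.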
